A study of Homo sapiens with 2 samples.

Results

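The autophagy genes described here are 38 genes whose products build, load or regulate the autophagosome, taken as a fixed list of symbols. A peak belonged to one of them when its exon or intron annotation carried that gene's identifier, or, for peaks of other classes, when the gene had the nearest transcription start site. Of 175546 peaks in the deposited list, 581 belonged to these genes. A peak was found for 37 of the 38 genes, and 36 had at least 1 exonic peak, meaning a peak annotated to an exon or a UTR peak overlapping the gene's own transcript. Of 20056 protein-coding RefSeq genes, 72.4% had a peak and 49.2% an exonic one. GABARAP carried peaks of the promoter class only, and TFEB carried none.

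RNA held by CRTC2, which works with CREB to activate transcription, was collected by RNA immunoprecipitation and sequencing (RIP-seq) in HCCLM3 cells, an established hepatocellular carcinoma line of human origin with WT genotype, and compared with input RNA of the same line. The data comprise 1 RIP and 1 input library with no replicate, and no control precipitation was analysed here, so RNA bound to the protein and RNA carried over by the precipitation cannot be told apart. The fold of a peak is the authors' ratio of RIP over input at its summit. Beside each fold stand the RIP fragments at the summit, recovered from the fold and the p of the peak, and an exact Poisson 95% interval of those fragments at the fixed input level, which covers counting error only. Input levels are in the same unit, the number of RIP fragments expected from the input. A single input fragment was taken as 0.634. This step was inferred from the recovered levels, of which 91.5% at or above it were whole multiples of it.

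In autophagy a double membrane, the phagophore, grows around cytoplasm, closes into an autophagosome and fuses with the lysosome, where the content is degraded. The ULK1 kinase complex starts the process, a class III phosphoinositide 3-kinase complex marks the membrane with a lipid that WIPI proteins read, and ATG9 and ATG2 proteins supply lipid. A pair of ubiquitin-like conjugation systems then attaches LC3 and GABARAP proteins to the membrane, where receptors such as p62 (SQSTM1) and NBR1 deliver cargo. In the liver, autophagy breaks down glycogen, lipid droplets and organelles during fasting, and CREB together with CRTC2 is known as an activator of autophagy genes in that state. The values here are RNA recovery with the CRTC2 protein and do not measure transcription.

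Most autophagy transcripts were recovered at folds close to those of the whole list, and a few peaks had higher folds. The median fold over the 581 peaks was 1.89, the same as over all peaks, and the median summit held 2 RIP fragments in both. The highest folds of the members were those of peaks annotated to exon 18 of NBR1 (6.12), exon 4 of PIK3C3 (5.77), exon 14 of WDFY3 (4.93), exon 4 of EPG5 (4.86), exon 22 of ULK1 (4.71) and exon 7 of ATG16L1 (4.55), and to the promoter class of EPG5 (4.93) and ATG5 (4.90). The peaks at exon 4 of PIK3C3 and of EPG5 were 19129 and 8367 bp wide, so their summits need not lie in the exon. Of the 581 member peaks 9 had a q of at most 0.05 (1.55%, exact interval 0.711 to 2.92), against 1.63% of all peaks. A fold of at least 4 was reached by 13 member peaks (2.24%, 1.20 to 3.80), against 1.63% of all peaks. Both intervals include the share of the whole list.

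Counted by gene, 7 of the 37 genes found in the list had a peak at this q (18.9%, exact interval 7.96 to 35.2), against 11.3% of all 19480 genes with a peak, and 8 members (21.6%, 9.83 to 38.2) reached a fold of 4, also against 11.3%. The members carried more peaks than other genes, with a median of 11 peaks against 7 over protein-coding genes with a peak, and the share of genes at this q rose with the number of peaks. Of genes with 11 to 20 peaks 17.8% had a peak at this q, and of the members in that range 3 of 10 did. Of genes with 21 to 40 peaks 35.3% did, and of the members 2 of 7. The 7 members are NBR1, PIK3C3, WDFY3, EPG5, ULK1, ATG16L1 and ATG5. The count depends on how peaks are given to genes, with 4 members when every peak went to the gene with the nearest start site and 3 when both assignments had to agree.

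**Figure D1:**
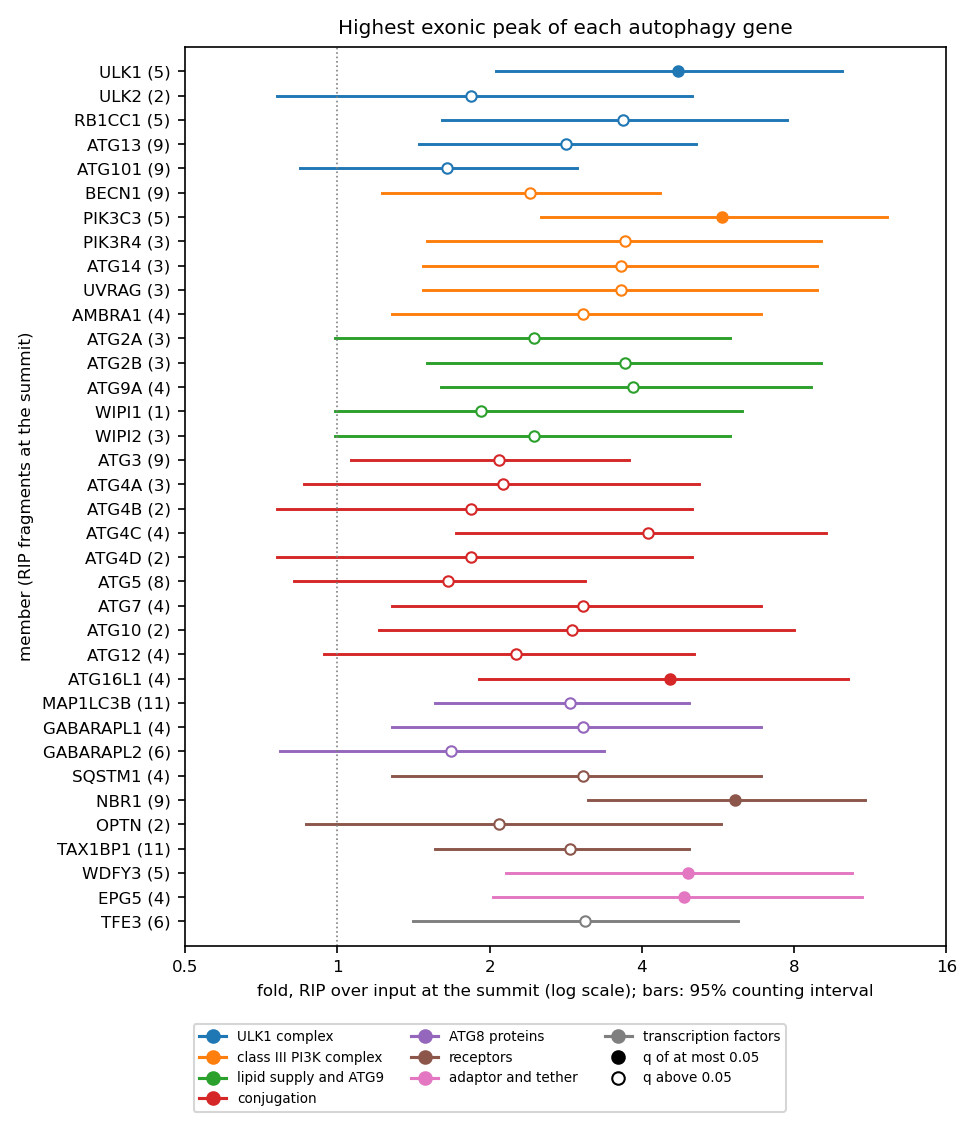
Highest exonic fold of each of the 36 autophagy genes with an exonic peak (horizontal log axis, RIP over input at the summit), coloured by role. Bars are 95% Poisson counting intervals, filled points have a q of at most 0.05, and the number after each name is the RIP fragments at that summit. The filled points lie between 4.55 and 6.12, and their intervals overlap with those of most other members.

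The ULK1 complex, which receives signals from mTORC1 and AMPK, had 78 peaks in its 5 genes. ULK1, the kinase itself, had peaks in 16 of its 28 exons, with folds from 1.55 to 4.71 and a median of 2.21. The highest was the 149-bp peak in exon 22 (chr12:131917419-131917567), where the fold was 4.71 (2.06 to 9.95), on 5 RIP fragments at an input level of 0.273, and a −log10 q of 1.60. Next were exon 6 (chr12:131908653-131908927, fold 4.11, 1.72 to 9.24, on 4 fragments, −log10 q 0.973) and exon 17 (chr12:131915131-131915440, fold 3.86, 1.61 to 8.68, on 4 fragments). The other 13 exon peaks of ULK1 lay at or below 3.09. Their counting intervals overlap that of exon 22, and a difference between exons was not tested.

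ULK2, the related kinase, had 1 exonic peak, in exon 18 of 28, with a fold of 1.84 on 2 fragments, and all 3 of its UTR peaks lay in the neighbouring gene AKAP10. RB1CC1 (FIP200), the scaffold of the complex, had 16 exonic peaks in a well covered transcript. The highest was a 37-bp 5′ UTR peak at 3.67 (1.61 to 7.76) on 5 fragments, followed by exon 8 at 3.09, and the median of its exon summits was 6 RIP fragments. ATG13, the regulatory subunit, reached 2.83 (1.45 to 5.12) on 9 fragments in exon 11 of 18. ATG101, its HORMA-domain partner, had 1 exonic peak at 1.65 (0.843 to 2.98) on 9 fragments. The summit of ATG101 therefore held more fragments than that of ULK1 exon 22 at a lower fold, since its input level was 5.07.

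The class III phosphoinositide 3-kinase complex had the most peaks of any role group, 154 in 6 genes. PIK3C3 (VPS34), its catalytic subunit, had 2 of the 9 member peaks at q of at most 0.05. The peak in exon 4 of 24 (chr18:41970862-41989990) had a fold of 5.77 (2.52 to 12.2) on 5 fragments at an input level of 0.0393, and its −log10 q of 5.41 was the highest of all members. It was 19129 bp wide, far wider than an exon, so its annotation says that it overlaps exon 4 and not that the summit lies there. The peak in exon 11 (chr18:42015527-42015597) was 71 bp wide, with a fold of 4.47 (1.87 to 10.1) on 4 fragments and a −log10 q of 1.93. The other exon peaks of PIK3C3, in 13 further exons, had folds from 1.70 to 3.67.

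PIK3R4 (VPS15), the pseudokinase subunit, reached 3.71 (1.50 to 9.06) on 3 fragments in exon 8 of 20 (chr3:130718447-130718491), with a −log10 q of 1.23, just outside the q limit of 0.05 (1.30 on this scale). ATG14, the subunit that directs the complex to the phagophore, reached 3.64 (1.47 to 8.89) on 3 fragments in exon 4 of 10 (chr14:55390907-55390955). UVRAG, which takes the place of ATG14 in the endosomal form of the complex, reached the same fold on the same number of fragments in exon 13 of 15 (chr11:76065759-76065798). The summit of the ATG14 peak also lies within the annotated span of FBXO34, and the list gives no strand, so reads of the 2 genes cannot be told apart there. BECN1 (Beclin 1), the core regulatory subunit, had 5 exon peaks with folds from 1.66 to 2.40 (1.23 to 4.34 for the highest, on 9 fragments). A 3′ UTR peak inside BECN1 that was counted for CNTD1 had 2.68 (1.12 to 6.03) on 4 fragments. AMBRA1, which positively regulates BECN1, carried 49 peaks, of which 28 were intronic and 24 of those rested on 1 fragment. The highest exonic fold counted for AMBRA1 was 3.06 (1.28 to 6.88) on 4 fragments in the 5′ UTR. A 3′ UTR peak with its summit inside AMBRA1 (chr11:46397434-46397861) was counted for CHRM4. It had a fold of 4.11 (2.10 to 7.43) on 9 fragments and a −log10 q of 1.03.

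Among the genes of lipid supply, ATG9A, the lipid scramblase of the vesicles that seed the phagophore, reached the highest exonic fold, 3.84 (1.61 to 8.63) on 4 fragments in exon 6 of 16 (chr2:219225463-219225537). ATG2B, a lipid transfer protein, had peaks in 16 of 42 exons and reached 3.71 (1.50 to 9.06) on 3 fragments in exon 9 (chr14:96332543-96332640), with a −log10 q of 1.23. Its paralogue ATG2A had peaks in 9 of 41 exons, none above 2.45. WIPI2, the effector of the lipid mark that recruits ATG16L1, had its highest fold at the start site, 3.45 (1.76 to 6.23) on 9 fragments, and 2.45 in exonic peaks. The highest exonic fold of WIPI1 was 1.92 on 1 fragment, in a 3′ UTR peak 13396 bp wide. No peak of this group reached q of 0.05.

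The peaks within ATG2A were divided among several genes by the annotation. Of the peaks with a summit inside ATG2A, 10 were counted for other genes, 8 of them because a microRNA gene within ATG2A, MIR6750 or MIR6749, has a start site within 3000 bp and the promoter class comes before exon or intron. The highest of these (chr11:64898623-64898805) had a fold of 5.42 (2.37 to 11.4) on 5 fragments with a −log10 q of 3.31, above every peak counted for ATG2A itself. A peak at chr11:64896589-64896811 had 3.74 (1.51 to 9.12) on 3 fragments with a −log10 q of 1.38, and one near MIR6749 (chr11:64902133-64902171) had 4.31 (1.88 to 9.10) on 5 fragments. With the peaks inside its span, ATG2A would be the 8th member at q of at most 0.05.

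The 10 conjugation genes had 24 exon and 17 UTR peaks, and the highest exonic fold was that of ATG16L1. Its product places the ATG12–ATG5 conjugate on the membrane. The 44-bp peak in exon 7 of 14 (chr2:233281134-233281177) had a fold of 4.55 (1.90 to 10.2) on 4 fragments and a −log10 q of 2.19. The other exonic peaks counted for ATG16L1 reached 2.91 at most. A further 9 peaks with a summit inside ATG16L1 were counted for SCARNA5 or SCARNA6. The highest was a 3′ UTR peak (chr2:233294529-233294748) at 3.36 (1.47 to 7.09) on 5 fragments. ATG5 had a single exonic peak, in exon 6 of 8, at 1.66 (0.819 to 3.08) on 8 fragments. Its peak in the promoter class, 153 bp from a start site (chr6:106316078-106316113), had a fold of 4.90 (2.34 to 9.44) on 7 fragments and a −log10 q of 1.65. The promoter class comes from the distance to a start site alone. This peak overlapped the annotated extent of the ATG5 transcript, and its class does not say whether it lay in an exon.

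ATG4C, a protease that trims LC3 and GABARAP proteins, reached 4.11 (1.72 to 9.24) on 4 fragments in its 3′ UTR (chr1:62864068-62864162), with a −log10 q of 0.973. In exonic peaks its paralogues ATG4A, ATG4B and ATG4D reached 2.12, 1.84 and 1.84, on 3, 2 and 2 fragments, and in the promoter class ATG4D reached 2.45 on 3. The intervals of the highest exonic peaks of all 4 overlap, and a difference between paralogues was not tested. ATG7, the E1-like enzyme of both conjugation systems, had 30 peaks, 19 of them intronic. The highest of these was at 3.58 (1.45 to 8.74) on 3 fragments in intron 7, and the highest exonic fold of ATG7 was 3.06 (1.28 to 6.88) on 4 fragments in exon 14 of 18. ATG3, the E2-like enzyme for LC3, had 5 exon peaks with folds from 1.62 to 2.08, on 9 to 21 fragments. ATG10, the E2-like enzyme for ATG12, had 1 exonic peak at 2.91 on 2 fragments, in a region 238638 bp wide, and ATG12 reached 2.25 on 4 fragments in its 3′ UTR.

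The ATG8 proteins are the membrane-bound ubiquitin-like proteins themselves, and their short transcripts had 28 peaks in 4 genes. In exonic peaks GABARAPL1 reached 3.06 (1.28 to 6.88) on 4 fragments in its 3′ UTR, MAP1LC3B (LC3B) 2.88 (1.56 to 4.96) on 11 fragments, and GABARAPL2 1.68 on 6 fragments. GABARAPL2 also had an intron peak at 2.66 on 2 fragments and a promoter-class peak at 2.21 (1.19 to 3.81) on 11. GABARAP is so short that all of it lies within the promoter class. It had 4 such peaks, and those counted for it with a summit inside the gene lay between 2.21 and 2.32 on 16 and 18 fragments. Another peak inside GABARAP, counted for PHF23, had 2.51 (1.56 to 3.85) on 19 fragments. For MAP1LC3B, 7 of 9 UTR peaks lay beyond the annotated end of the gene, in the span of ZCCHC14, and included the highest fold counted for it, 3.67. Over all members, 16 of 72 UTR peaks and 37 of 581 peaks had a summit outside the member they were counted for. Conversely, 97 peaks with a summit inside 27 members were counted for other genes. Some of these had higher folds than any exonic peak counted for the member, as in ULK2 (2.89 on 2 fragments) and ATG10 (3.06 on 4 fragments).

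The cargo receptors held the highest fold and the deepest coverage of the members. NBR1, a ubiquitin-binding receptor that acts beside p62, had peaks in 14 of its 21 exons. The 46-bp peak in exon 18 (chr17:43201705-43201750) reached a fold of 6.12 (3.13 to 11.1), on 9 RIP fragments at an input level of 0.634, the level of 1 input fragment, and a −log10 q of 3.37. The peak in exon 9 (chr17:43190754-43190794) had 3.97 (1.96 to 7.39) on 8 fragments, and the other 12 exon peaks had folds from 1.58 to 2.65. In exon 17, next to the highest peak, the fold was 2.29 (1.21 to 4.04) on 10 fragments at an input level of 3.80. The exons thus differed in input level more than in RIP fragments, and their fold intervals overlap.

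SQSTM1 (p62) showed the opposite combination. Its 4 exon peaks had 28 to 31 RIP fragments, at input levels of 18.4 to 19.6, which is 29 to 31 input fragments. Their folds were 1.41 to 1.65, with 1.65 (1.14 to 2.32) in exon 4 of 9 (chr5:179823940-179824342). The highest exonic fold of SQSTM1, 3.06, lay on 4 fragments in its 5′ UTR. TAX1BP1, a receptor for ubiquitylated cargo, had exon summits with a median of 12.5 fragments, a median fold of 1.74 and a highest fold of 2.88 (1.56 to 4.96) on 11 fragments in exon 16 of 17. OPTN (optineurin), a receptor in mitophagy, reached 2.09 in exonic peaks and 1.45 at its deepest exon summit, on 17 fragments.

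**Figure D2:**
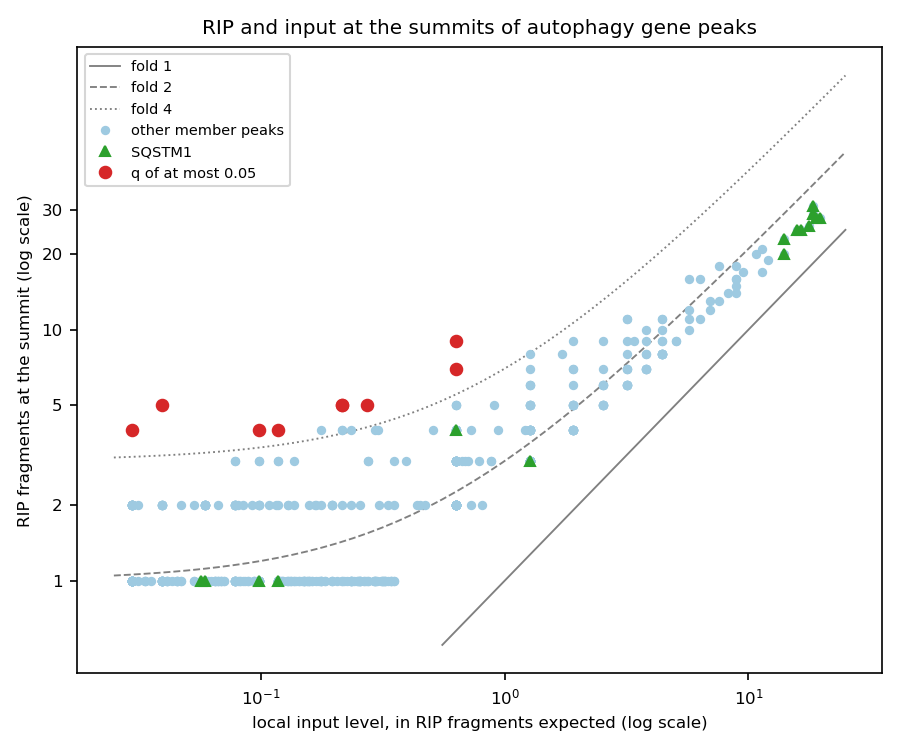
RIP fragments at the summit (vertical log axis) against the local input level (horizontal log axis, in RIP fragments expected) for the 581 peaks of the autophagy genes, with lines at fold 1, 2 and 4. The red points at q of at most 0.05 rest on 4 to 9 fragments at input levels up to 0.634, and the deepest summits, those of SQSTM1 (triangles), lie below the line at fold 2.

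Over the members, a split of this kind is in part set by the fold formula and the p limit of the list. Summits with few fragments enter the list only at low input levels, and deep ones can enter at small folds. The 36 summits with 10 or more RIP fragments, in 13 members, had folds from 1.41 to 2.88 with a median of 1.68, and all had an input level of at least 3.17. Over the whole list such deep summits had a median of 1.81 and reached 29.1. The 250 summits with 1 fragment had folds from 1.48 to 1.94. With a pseudocount of 1 and the lowest input level, a single fragment gives at most 1.94, and the lowest fold stood at a −log10 p of 1.305, next to the lowest of the list (1.301). All 250 lay where the input level was below that of 1 input fragment, as did every 1-fragment peak of the list, with levels up to 0.354. So did 7 of the 9 member peaks at q of at most 0.05, against 68.5% of all peaks at this q. Among peaks of any q this was so for 60.4% of member peaks and 60.2% of all peaks. The interval of the fold lay above 1 for 154 member peaks in 31 members (26.5%), against 26.3% of all peaks. It lay above 2 for 7 member peaks (1.20%), against 0.978% of all peaks, in NBR1, PIK3C3, EPG5, WDFY3, ULK1 and ATG5.

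The large adaptor WDFY3 (ALFY), which links ubiquitylated aggregates to the autophagy machinery, and the tether EPG5, which joins autophagosomes to lysosomes, had 80 peaks between them. WDFY3 had the most of all members, 62, and a peak in 46 of its 68 exons. Its folds ran from 1.65 to 4.93 with a median of 2.07, on 1 to 5 fragments. The highest was exon 14 (chr4:84809878-84810339), 4.93 (2.16 to 10.4) on 5 fragments with a −log10 q of 2.06. The antisense gene WDFY3-AS1 overlaps that summit, and without strand their reads cannot be told apart. Exon 4 (chr4:84860439-84860553), at 4.25 (1.78 to 9.55) on 4 fragments, had a −log10 q of 1.29, just short of the limit. Exon 65 (chr4:84678981-84679175) reached 4.05.

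EPG5 had peaks in 15 of 44 exons and 2 peaks at q of at most 0.05. The one in exon 4 (chr18:45943708-45952074) had a fold of 4.86 (2.03 to 10.9) on 4 fragments at the lowest input level of the list, 0.0298, with a −log10 q of 4.04, and was 8367 bp wide. The one in the promoter class (chr18:45967253-45967283), 46 bp from the start site, had 4.93 (2.16 to 10.4) on 5 fragments with a −log10 q of 2.06. Of the EPG5 exon peaks 8 of 15 were wider than 1 kb, against 13 of 46 for WDFY3 and 0 of 14 for NBR1.

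**Figure D3:**
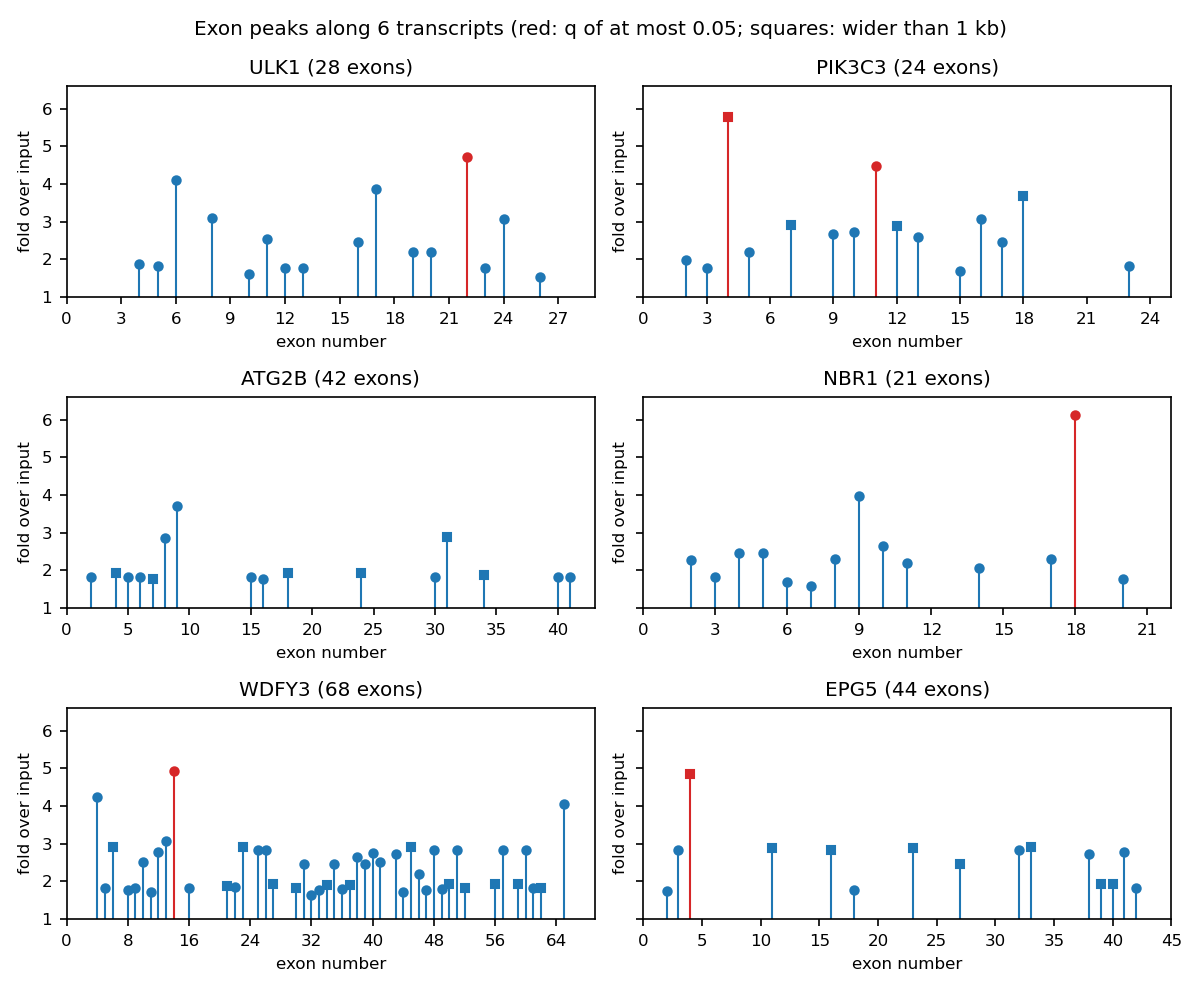
Folds of exon peaks (vertical axis, RIP over input) by exon number (horizontal axis) for ULK1, PIK3C3, ATG2B, NBR1, WDFY3 and EPG5. Peaks at q of at most 0.05 are red and peaks wider than 1 kb are squares. Exon 18 of NBR1 is at 6.12 beside exon 17 at 2.29, with counting intervals that overlap, and 46 of 68 WDFY3 exons carry a peak.

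TFE3 and TFEB encode related transcription factors of autophagy and lysosome genes. TFE3 had 8 peaks and reached 3.09 (1.41 to 6.20) on 6 fragments in exon 8 of 10 (chrX:49033443-49033476). TFEB (chr6:41683978-41736223) had no peak of its own. Its span held the summit of 1 peak counted for MDFI, with a fold of 1.89 on 1 fragment. It was also covered in part by a region of 79738 bp (chr6:41691331-41771068) counted for MIR10398, at 3.85 (1.56 to 9.40) on 3 fragments with a −log10 q of 2.08 and a summit outside TFEB.

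Exons took 43.2% (39.1 to 47.3) of member peaks, against 30.4% of all peaks and 33.3% of the peaks of protein-coding genes. Without WDFY3 the member share was 39.5% (35.3 to 43.9). With every peak given to the nearest start site it was 37.4%, and 35.3% where both assignments agreed. The intervals treat peaks as independent, though many come from the same gene, so they are likely too narrow. This holds for the last-exon share below as well. Introns held 28.9% of member peaks, promoters 13.8%, 3′ UTRs 8.26% and 5′ UTRs 4.13%, against 26.6%, 20.9%, 13.8% and 2.08% of all peaks. These shares depend on the assignment rule, which gives UTR peaks to the nearest start site. The 97 peaks inside 27 members that were counted for other genes include many 3′ UTR peaks, as in EPG5, PIK3C3 and ATG2B. The 3′ UTR share can therefore not be read as a trait of these transcripts. The share of all peaks comes from the same rule, and a cause of the difference was not tested. Intron peaks of members rested on 1 fragment in 85.1% of cases, and exon peaks in 18.3%, close to 85.8% and 15.6% over the whole list. Of the 168 member intron peaks none reached q of 0.05, against 0.372% over the list. Of the member exon peaks 4 of 251 (1.59%, 0.436 to 4.03) lay in the last exon of the transcript, against 5.75% (5.55 to 5.96) of exon peaks of protein-coding genes. None lay in exon 1, which falls within the promoter class. Many last exons are 3′ UTR and are then counted as such.

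**Figure D4:**
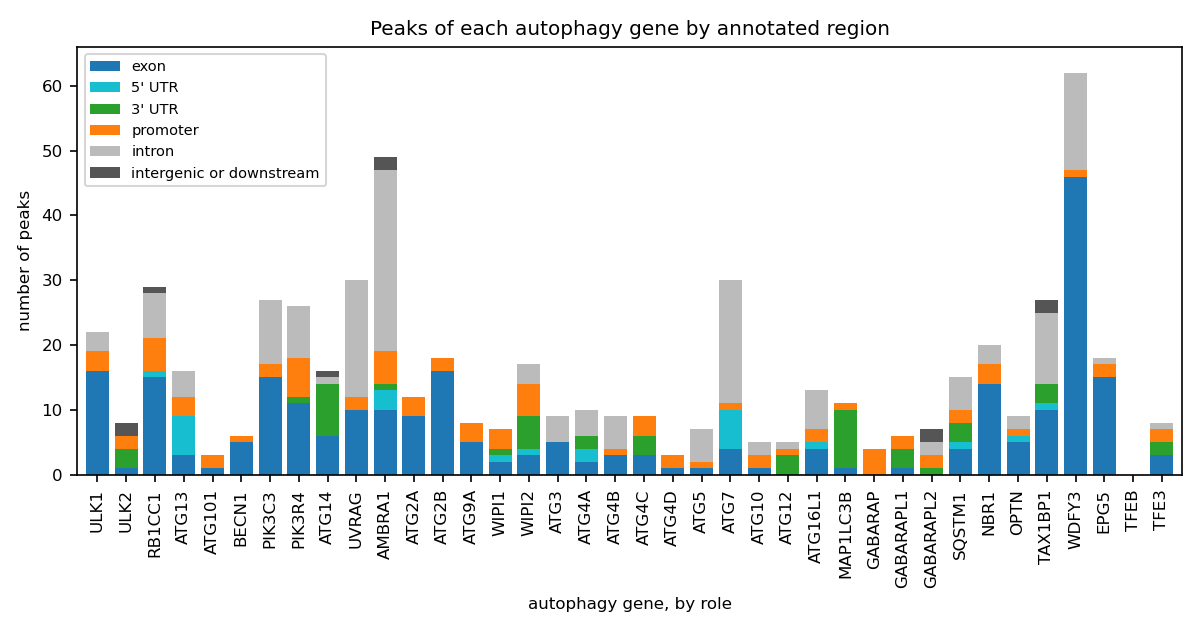
Number of peaks of each of the 38 autophagy genes (stacked bars from 0) by annotated region, with genes ordered by role. WDFY3 has the tallest bar with 62 peaks, 46 of them in exons, AMBRA1 and ATG7 are mostly intronic, and TFEB has none.

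The sequence under a member peak could be read only where it touched a RefSeq promoter window, 250 bases before to 50 after a start site (RefSeq, GRCh38.p14). Within a window it was read no further than 30 bases into the transcript, so peaks that begin later were not read. These windows matched 33 of the 38 members. The stretches below are the parts of 4 start-site peaks that lie in such a window, up to 30 bases into the transcript, on the gene's strand. They are shown because recovery at the start of a transcript is where promoter-class and transcript peaks meet. Capitals mark GGACT, a common core of the m6A consensus, since the study concerns m6A-modified mRNAs.
NBR1 (chr17:43171162-43171243, plus strand, hg38): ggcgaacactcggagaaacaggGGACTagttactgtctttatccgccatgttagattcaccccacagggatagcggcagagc
WIPI2 (chr7:5190233-5190262, plus strand): gtaccgggtgccccggctctggagcataaa
ATG2A (chr11:64917180-64917206, minus strand): gaacagcggagccggacggggatcgcc
AMBRA1 (chr11:46593996-46594041, minus strand): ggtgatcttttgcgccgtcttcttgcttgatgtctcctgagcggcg

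The NBR1 peak began 52 bases before the start site and had a fold of 2.65 (1.16 to 5.59) on 5 fragments, and the GGACT lies upstream of the start. The WIPI2 peak began at the annotated start base. The ATG2A peak began 3 bases after it, with 2.78 (1.15 to 7.63) on 2 fragments, and the AMBRA1 peak spanned it, with 1.84 (0.760 to 5.04) on 2 fragments. On either strand, GGACT occurred in 51.2% of the 43 member windows and in 44.2% of all 35116. TGACGTCA, the full CREB element, occurred in 1 member window, that of GABARAPL1 (2.33% against 1.85%). CACGTG, the E-box read by TFEB and TFE3, occurred in those of ATG14 and ATG3 (4.65% against 7.26%). A match is a string in a window and no evidence of binding.

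A list of 39 other autophagy genes had 37 genes with a peak and 30 with an exonic peak, and 1 of the 39 (2.56%) reached a q of 0.05, against 9.58% of the protein-coding genes. This was TECPR1, an autophagosome tether, at 3.79 (1.53 to 9.26) on 3 fragments in exon 22 of 26. The highest exonic fold of this list was that of RUBCN, an inhibitor of the UVRAG form of the kinase complex, at 4.25 (1.78 to 9.55) on 4 fragments, followed by FYCO1, an adaptor for autophagosome transport, at 3.93. Outside exonic peaks, FOXO3, a transcription factor active in fasting, had a promoter-class peak at 4.29 on 6 fragments, named after its value was seen. MAP1LC3C and MITF had no peak. Of 25 lysosome genes all had a peak, 24 had an exonic one and 2 (8%) reached this q. SCARB2, the receptor that brings glucocerebrosidase to the lysosome, had 7.96 (4.41 to 13.4) on 12 fragments in exon 3 of 9, above every autophagy gene of the 38, with an interval that overlaps that of NBR1. LAMP2, a lysosomal membrane protein, had 4.90 (2.34 to 9.44) on 7 fragments. The median highest exonic fold was 2.99 over the 36 members with an exonic peak, 2.65 over the other autophagy genes, 2.57 over the lysosome genes and 2.83 over all genes with an exonic peak.

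The cell line label was set against marker genes. Of 15 hepatocyte and hepatoma markers 12 had a peak and 6 an exonic one, against 72.4% and 49.2% of protein-coding RefSeq genes. ALB, AFP, HNF4A and APOB were among those with a peak, and SERPINA1, GPC3 and EPCAM had none. Of these markers only APOB reached a q below 0.05, on 3 fragments in a peak 6408 bp wide. Of blood and immune markers 3 of 6 had a peak, of endothelial, stellate and fibroblast markers 2 of 7 and of neuronal markers 4 of 4. PTPRC, CD3E, HBB, VWF, CDH5, COL1A1, ACTA2 and PDGFRB had none. PECAM1 and SYT1 reached q of 0.05, in 2 peaks and 1 peak. Their lowest q rested on 3 fragments in peaks 21396 and 180068 bp wide. The highest fold of PECAM1 was 4.55, in another peak. A peak marks RIP over input and not the level of a transcript.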

How the data were processed

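RIP-seq of CRTC2 in HCCLM3 cells was analysed from 1 deposited list of annotated peaks. Per the submitters' processing notes, the tools were HISAT2 and MACS2 and the build hg38. Tool versions: not given in the sources used here. Each peak carries, as the authors deposited it, a fold (a ratio of RIP over control, treated here as input), a −log10 p, a −log10 q and a score; the score was not used. The fragments at each summit were solved from fold and p with a pseudocount of 1 and a Poisson tail. A whole number fitted within 0.001 for 100% of peaks, a single one for 97.2% of member peaks. The solver was tested on data simulated with the same formulas, which checks the solving and not the formulas. Symbols were paired with identifiers in the list for 36 members, and through RefSeq for ATG3 and TFEB; TFE3 was paired with 2 identifiers, of which that of RefSeq was used. Intervals are exact (Poisson or Clopper-Pearson, 95%), and those of peak shares treat peaks as independent. Depth is known only as fragments at summits, from 1 to 31 in member peaks.

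Members named in full have a peak at q of at most 0.05, are among the 10 of highest exonic fold or the 5 with the most exonic peaks, or have no peak; of other lists, up to 4 genes of highest fold and each gene at this q. PECAM1, SYT1 and peaks counted for other genes were named with their values seen. The members, lists and limits were chosen with earlier results of these data known. Alternatives were other gene assignments, limits on q, fold, fragments and width, merged peaks, no promoter class, the main chromosomes, summits inside the gene and an inclusive p. With 1 library per group no test across genes was run. Python 3.11.15, pandas 2.3.3, NumPy 2.4.6, SciPy 1.17.1 and matplotlib 3.10.9 were used.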

Additional observations from a re-analysis of the deposited data

Results flagged for a closer look

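Peaks at q of at most 0.05 that lie in or over the annotated span of an autophagy gene but were counted for another gene were set apart, since no count of the members uses them. In ATG2A, a pair of peaks counted for MIR6750 had folds of 5.415 (2.37 to 11.4, on 5 fragments) and 3.736 (1.51 to 9.12, on 3 fragments). At the 3′ end of ATG7, which overlaps VGLL4, a regulator of TEAD transcription factors, peaks counted for VGLL4 had folds of 5.147 (2.63 to 9.31, on 9 fragments) and 3.961 (2.24 to 6.57, on 13 fragments) in its 3′ UTR and 4.411 (2.26 to 7.98, on 9 fragments) in exon 3 of 5. The list holds no strand, so VGLL4 and ATG7 cannot be told apart there. Over the start of TFEB, the region counted for MIR10398 had a fold of 3.849 (1.56 to 9.40, on 3 fragments), with a summit outside TFEB. Counting summits inside the gene for the member as well would raise the members at this q from 7 to 9, by ATG2A and ATG7.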

How the results depend on the processing

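No paired analysis was possible because there is 1 library per group. With every peak given to the nearest start site the exon share of member peaks was 37.4% and 4 members had a peak at q of at most 0.05; with both assignments in agreement these were 35.3% and 3. Keeping only peaks at q of at most 0.05 left 9 peaks in 7 members, 6 with an exonic one, an exon share of 77.8%, a median fold of 4.897, a median of the members' highest folds of 4.934, and a share at this q of 100% by construction. A fold of at least 4 left 13 peaks in 8 members, 7 with an exonic one, an exon share of 76.9%, medians of 4.713 and 4.916, and 69.2% at this q. At least 5 fragments left 113 peaks and 21 members with an exonic one, an exon share of 57.5%, medians of 1.874 and 2.758, and 5.31% at this q. An inclusive p of at most 0.05 left 302 peaks, an exon share of 48.7%, a median fold of 2.399 and 2.98% at this q. Merging peaks within 1 kb left 305, a median fold of 1.942 and 2.95% at this q. The median fold was 1.836 for peaks of at most 1 kb, and the exon share 50.1% without the promoter class. These changes follow from which peaks each choice keeps. With the main chromosomes alone, or summits inside the gene, no median or share moved beyond its spread. The counts have no such spread, and the summit rule left 544 of the 581 peaks. The inclusive p and the summit rule were chosen after seeing the data. The member peaks at q of at most 0.05 rest on 4 to 9 fragments, which limits every fold among them.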
